A study of Homo sapiens with 24 samples.

Results

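The chromosome 19 zinc finger genes are the genes with a numbered ZNF symbol that lie on human chromosome 19. A gene was taken as a member when its symbol was ZNF followed by a number, with at most 1 further letter, when the first chromosome listed for its exons was 19, and when it was listed for all 4 cell lines. These conditions held for 189 of the 11408 genes listed for all 4 lines. Another 58 chromosome 19 ZNF genes were listed for only some of the lines, out of 247 listed for any, and were not tested. The comparison groups were 215 ZNF genes on other chromosomes and 620 other genes on chromosome 19.

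C2H2 zinc finger proteins read DNA through tandem fingers, each of which is a short fold held together by a zinc ion. Most of those on chromosome 19 arose by local gene duplication and lie in clusters. Most also carry a Krüppel-associated box (KRAB), which recruits the co-repressor TRIM28 (KAP1) and with it the H3K9 methyltransferase SETDB1 and HP1 proteins. Many KRAB zinc finger proteins bind and silence transposable elements, and the zinc finger gene clusters are themselves packed in H3K9-methylated chromatin.

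The data were total RNA sequencing counts from 4 lines of human small-cell lung cancer. H187 and H209 are named ISL1-high and H82 and SHP-77 ISL1-low in the series design. Each line received 0.1 nM lurbinectedin for 24 h or its solvent DMSO, in 3 biological replicates per group, which gave 24 samples in 8 groups. Lurbinectedin is an alkylating drug that binds the DNA minor groove and blocks transcription. The gene that names the classes, ISL1, encodes a homeodomain factor known from neurons and endocrine cells. Each ISL1 class was represented by 2 lines, so a difference between classes cannot be told apart from a difference between these particular lines.

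The libraries held 24226553 to 36415190 counts each. ISL1 itself ranged from 207 to 260 CPM (counts scaled to a common library size) in the DMSO libraries of the ISL1-high lines, from 3.34 to 3.94 CPM in H82 and from 0.88 to 0.94 CPM in SHP-77. Neuroendocrine markers were present in all 4 lines. Of the 14 neuroendocrine marker genes, 13, 12, 12 and 11 were listed for H187, H209, H82 and SHP-77. Their summed level was 3795 to 3937 CPM in the H187 DMSO libraries and 3551 to 3661 CPM in the H187 lurbinectedin libraries. The same sum was 3336 to 3515 CPM under DMSO and 3417 to 3433 CPM under the drug in H209, 1519 to 1559 and 1568 to 1601 CPM in H82, and 5126 to 5386 and 5056 to 5259 CPM in SHP-77. The part of neuroendocrine state in the results below was not tested. Marker lists for non-neuroendocrine, fibroblast, leukocyte, endothelial and tuft-like cells summed to at most 29.4 CPM in any library. In these bulk samples, fewer cells of a kind and less RNA per cell cannot be told apart.

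Zinc fingers are implied by the ZNF symbol used for selection, whereas the KRAB pattern, GC content and gene span were not used. A KRAB amino acid pattern was found in the protein models of 153 members and not in 34, and the other 2, ZNF137P and ZNF542P, are pseudogenes without a coding model. The median member encoded 12 fingers, with a range from 1 to 31, against a median of 9 in the ZNF genes of other chromosomes. Member transcripts had a median GC content of 42.4%, against 45.7% in the ZNF genes of other chromosomes, 48.1% in all genes tested and 60.4% in the other genes of chromosome 19. The median gene span was 19.7 kb, against 28.3 kb over all genes tested. Members without the KRAB pattern were GC-rich, with a median of 61.2% against 42.2% in members with it.

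Levels under DMSO came first, because the lines differed more from each other than treated from untreated samples. The zinc finger genes of chromosome 19 were more abundant in both ISL1-high lines than in both ISL1-low lines. Their summed level under DMSO was 4902, 4920 and 5098 CPM in the 3 H187 libraries and 5721, 5968 and 5813 CPM in the 3 H209 libraries. It was 3401, 3398 and 3356 CPM in H82 and 3289, 3333 and 3401 CPM in SHP-77. The ISL1-high and ISL1-low libraries did not overlap, and H209 lay above H187, whereas H82 and SHP-77 overlapped.

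**Figure D1:**
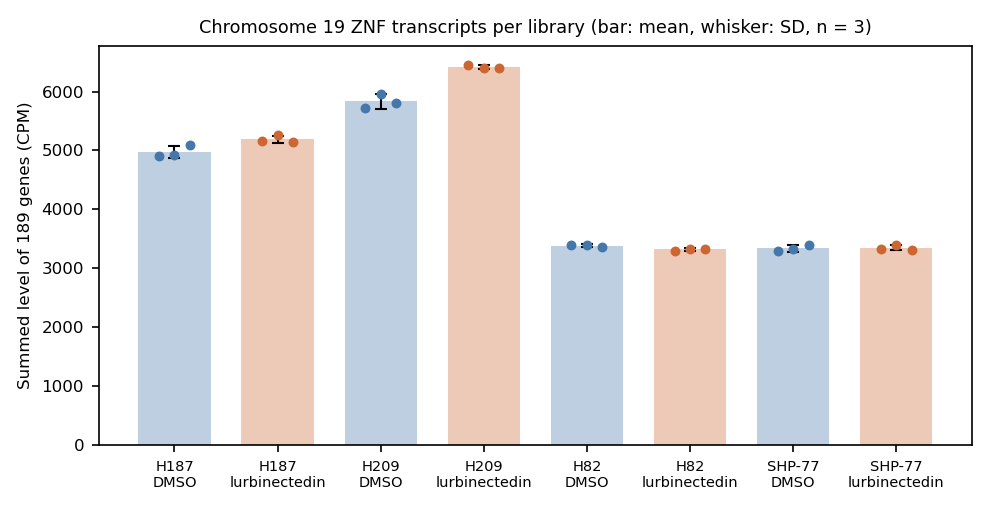
Summed CPM of the 189 members in each library (points), with group means (bars) and SD (whiskers, n = 3), for DMSO (blue) and lurbinectedin (orange) in each line. The lowest H187 or H209 library stands at 4902 CPM and the highest H82 or SHP-77 library at 3401 CPM, and the 3 treated H209 libraries lie between 6394 and 6459 CPM, above the H209 controls.

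Between the ISL1 classes under DMSO, 62 members were at least 2-fold higher in the ISL1-high lines with an adjusted p under 0.05 and 2 were lower, by edgeR's quasi-likelihood test with Benjamini-Hochberg adjustment. Over all genes tested the same rule called 12.7% higher and 11.9% lower. The median log2 difference of the members was 0.78, against 0.43 for ZNF genes on other chromosomes (39 higher and 10 lower of 215), −0.07 for the other genes of chromosome 19 (71 higher and 84 lower of 620) and 0.01 over all genes. With the adjusted p alone and no limit on the fold, 161 members were higher and 12 lower. Of the members with the KRAB pattern 52 of 153 were called higher, with a median log2 difference of 0.81, and of those without it 8 of 34, with a median of 0.42.

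ZNF829, a KRAB protein with 9 fingers, was among the members that differed most between the classes. Its level under DMSO was 26.1, 25.2 and 26.1 CPM in H187 and 31.7, 32.9 and 29 CPM in H209, but 1.91, 2.14 and 1.87 CPM in H82 and 5.37, 4.97 and 5.24 CPM in SHP-77. The ISL1-high libraries all lay above the ISL1-low ones, and the log2 difference was 3.15 ± 0.06 (SE; edgeR adjusted p = 3.8e-27). ZNF737, a KRAB protein with 13 fingers, measured 51.0 ± 1.43 CPM in H187 and 55.1 ± 2.75 CPM in H209, against 4.37 ± 0.442 CPM in H82 and 20.5 ± 1.86 CPM in SHP-77 (SD, n = 3), a log2 difference of 2.48. For ZNF525, a KRAB protein with 8 fingers, the means were 45.7 ± 1.38 CPM in H187, 45.2 ± 1.38 CPM in H209, 7.35 ± 0.748 CPM in H82 and 18.2 ± 0.821 CPM in SHP-77 (SD, n = 3). In each of these 3 genes H82 was the lowest line and SHP-77 lay between H82 and the ISL1-high pair. ZNF772, a KRAB protein with 10 fingers, had another order, with 69.6 ± 1.80 CPM in H209, 39.3 ± 2.94 CPM in H187, 23.9 ± 1.99 CPM in H82 and 5.83 ± 0.251 CPM in SHP-77 (SD, n = 3).

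The 2 members called lower in the ISL1-high class were ZNF714 and ZNF30, and H187 was the lowest line for both. ZNF714 measured 2.44, 1.70 and 1.91 CPM in the H187 DMSO libraries, while H209 held 117, 127 and 122 CPM. H82 had 82.6, 86.9 and 82.8 CPM of it and SHP-77 73.2, 70.2 and 75.6 CPM. H209, an ISL1-high line, therefore had the highest level of this gene, and no library of H187 reached that of any other line. ZNF30, a KRAB protein with 16 fingers, measured 1.26 ± 0.157 CPM in H187, 5.43 ± 0.428 CPM in H209, 15.5 ± 0.323 CPM in H82 and 6.67 ± 0.246 CPM in SHP-77 (SD, n = 3), so that H82 was the highest line.

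Each line had its own high and low members. Against the mean of the other 3 lines, at 2-fold and an adjusted p under 0.05 in edgeR, 36 members were higher and 10 lower in H187, where 13.2% and 12.1% of all genes were called. In H209, 62 were higher and 1 lower, with a background of 11.8% and 11.0%. H82 had 6 higher and 52 lower (background 13.7% and 16.5%), and SHP-77 had 1 higher and 32 lower (background 13.1% and 10.8%). H209 held the highest mean level of 102 members, H187 of 61, H82 of 13 and SHP-77 of 13, and the lowest level was in H82 for 94 members and in SHP-77 for 69.

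ZNF91, a KRAB protein with 31 fingers that is known to repress SVA retrotransposons, had its highest level in H209. The H209 DMSO libraries held 188, 208 and 207 CPM, SHP-77 61.0, 61.3 and 65.4 CPM, H82 30.4, 31.2 and 31.7 CPM and H187 11.6, 12.8 and 11.9 CPM. The 4 lines did not overlap at any step of this order, and H209 stood 2.81 ± 0.04 (SE) above the mean of the others on the log2 scale (edgeR adjusted p = 1.1e-30). ZNF730, which lies near it, was called higher in the same line, at 49.4 ± 2.13 CPM in H209 against 3.64 to 5.73 CPM as the means of the others. ZNF229, a KRAB protein with 16 fingers, measured 38.0 ± 1.66 CPM in H209, 9.74 ± 0.490 CPM in SHP-77, 9.02 ± 1.16 CPM in H82 and 2.01 ± 0.111 CPM in H187 (SD, n = 3). The single member called lower in H209 was ZNF296, which has no KRAB pattern, at 1.70 ± 0.441 CPM against 9.74 ± 0.698 CPM in H187 and 9.78 ± 1.16 CPM in H82 (SD, n = 3); SHP-77, at 1.89 ± 0.171 CPM, overlapped H209.

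H187 stood out for ZNF793, a KRAB protein with 6 fingers. It measured 38.5, 38.3 and 36 CPM in H187, 18.9, 21.3 and 23.5 CPM in H209, 2.46, 1.72 and 1.83 CPM in H82 and 4.14, 4.22 and 5.05 CPM in SHP-77, with no overlap between lines. ZNF43, a KRAB protein with 19 fingers, was lowest in SHP-77, where the 3 libraries held 0.577, 0.556 and 0.666 CPM against 22.6 ± 0.913 CPM in H187, 15.4 ± 0.772 CPM in H82 and 10.8 ± 1.34 CPM in H209 (SD, n = 3). ZNF461 was also lowest in SHP-77, at 0.645 ± 0.158 CPM against 16.2 ± 1.68 CPM in H187, 16.3 ± 0.343 CPM in H209 and 5.14 ± 0.354 CPM in H82 (SD, n = 3). ZNF814, with 23 fingers, measured 1.5 ± 0.196 CPM in SHP-77 and 5.91 ± 1.2 CPM in H187, against 30.6 ± 0.745 CPM in H82 and 39.1 ± 1.69 CPM in H209 (SD, n = 3). For ZNF814 the high and low lines cut across the ISL1 classes, as they did for ZNF91, while over all members the highest line was most often an ISL1-high line and the lowest an ISL1-low line, by the counts above.

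Which chromosome 19 ZNF genes were listed at all also differed by line. Of the 247 chromosome 19 ZNF genes, 223 were listed for H187, 234 for H209, 224 for H82 and 210 for SHP-77. Of the 16795 genes of any kind listed for at least 1 line, these lines listed 14023, 14421, 13516 and 14190. Among the 247 ZNF genes, 21 were listed for the other 3 lines but not for SHP-77. Such patterns across lines were not counted over all genes, so no direction is read from them. ZNF404, ZNF415, ZNF665, ZNF818P, ZNF826P and ZNF833P were listed for both ISL1-high lines and neither ISL1-low line, and ZNF114, ZNF486 and ZNF556 for both ISL1-low lines and neither ISL1-high line. The rest of the 21 genes listed for exactly 2 lines cut across the classes. Of these, ZNF69, ZNF98, ZNF433, ZNF442, ZNF492, ZNF763 and ZNF878 were listed for H209 and SHP-77. ZNF418, ZNF536, ZNF671 and ZNF835 were listed for H209 and H82, and ZNF257 for H187 and SHP-77. All genes named in this paragraph were picked after the lists had been seen.

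To compare genes with each other, levels were also expressed per length of exon, as CPM per kilobase of exon (RPKM). The median member stood at 5.13 RPKM under DMSO in H187, 6.22 RPKM in H209, 2.96 RPKM in H82 and 3.20 RPKM in SHP-77. ZNF146 (OZF), which has 10 fingers and no KRAB pattern, was the most abundant member in every line, at 58.6, 43.1, 55.8 and 32.0 RPKM in that order. It was followed, by the mean over the lines, by ZNF428 at 28.1 RPKM, ZNF358 at 23.3 RPKM, ZNF460 at 22.7 RPKM, ZNF121 at 22.6 RPKM and ZNF787 at 19.0 RPKM. Of these 6, only ZNF460 carries the KRAB pattern, and ZNF428 encodes a single finger. The means of ZNF358, ZNF460 and ZNF121 lay closer together than their spread over lines, which was 16.2 to 35.2, 14.5 to 31.3 and 13.3 to 37.9 RPKM. The lowest means were those of ZNF846 at 0.623 RPKM, ZNF575 at 0.546 RPKM and ZNF761 at 0.240 RPKM.

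Lurbinectedin raised many of these genes in the ISL1-high lines and few in the ISL1-low lines. In H187, 39 members were higher under the drug and 0 were lower at an adjusted p under 0.05 in edgeR, where 12.2% of all genes tested were higher and 12.7% lower. At an unadjusted p under 0.05, 57 members were higher and 5 lower, and DESeq2 gave 33 higher and 0 lower. In H209, 96 members were higher and 6 lower, where 22.7% of all genes tested were higher and 22.5% lower. H82 had 2 higher and 1 lower (background 1.55% and 1.38%), and SHP-77 had 1 higher and 2 lower (background 1.98% and 3.21%), shares close to or below the background. Most changes were small: the members' median log2 fold change was 0.15 in H209 and 0.07 in H187, against −0.02 in H82 and 0.00 in SHP-77.

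ZNF genes on other chromosomes moved in the same way. Of these 215 genes, 39 were higher and 5 lower in H187, and 101 were higher and 19 lower in H209. Of the 620 other genes of chromosome 19, 109 were higher and 44 lower in H187, 158 were higher and 130 lower in H209, and 32 were higher and 0 lower in H82. No test compared the members with the ZNF genes elsewhere.

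**Figure D2:**
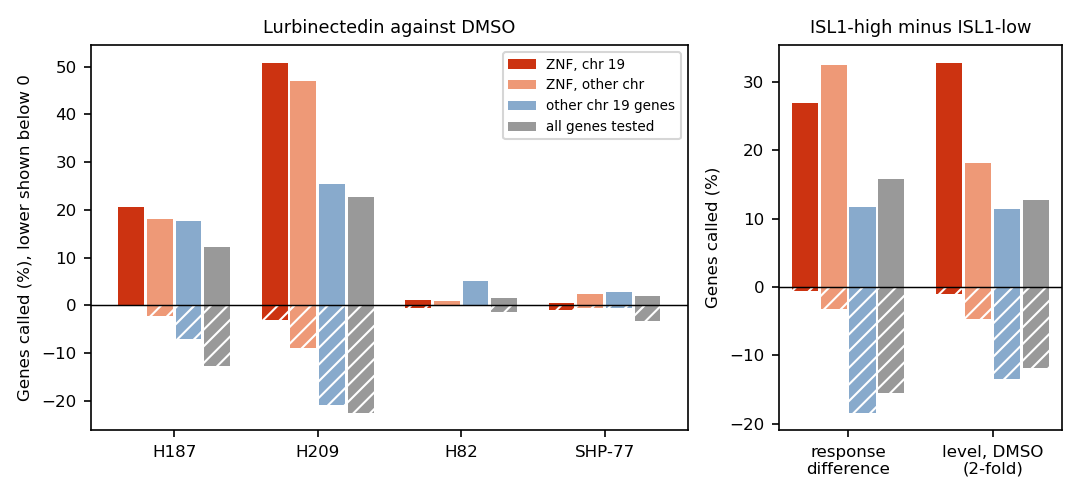
Share of genes called higher (above 0) and lower (hatched, below 0) for the 189 members, 215 ZNF genes on other chromosomes, 620 other chromosome 19 genes and all genes tested, by comparison (y axis, percent). In H209 the members' bar for higher genes (96 of 189) is next to that of the ZNF genes elsewhere (101 of 215) and above the 22.7% of all genes, while the members' bars for H82 and SHP-77 are near 0. The right panel gives the response difference and the 2-fold level difference between the ISL1 classes, with 51 and 62 members higher.

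The summed member level moved in the same direction. In H187 it was 5167, 5260 and 5140 CPM under lurbinectedin, above all 3 controls. In H209 it was 6459, 6407 and 6394 CPM, also above all controls. The treated H82 libraries, at 3297, 3335 and 3327 CPM, lay just below the controls, and the treated SHP-77 libraries, at 3331, 3397 and 3316 CPM, overlapped theirs. When each treated library was set against each control, the median log2 difference over the members was above 0 in 9 of 9 pairs in H187 (0.03 to 0.10) and in 9 of 9 in H209 (0.10 to 0.17), in 2 of 9 pairs in H82 and in 6 of 9 in SHP-77. Pairs of replicates from 1 group differed by at most 0.06 in any line. In H187, 64 members had all treated libraries above all controls and 4 all below, where 20.5% and 19.0% of all genes did so. In H209 these counts were 97 and 4 (26.7% and 28.5% of all genes), in H82 5 and 18 (9.50% and 12.3%) and in SHP-77 15 and 13 (10.8% and 11.3%).

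The calls in H187 and H209 overlapped. Of the 39 members higher in H187, 31 were also higher in H209, which is 79.5% of the H187 members and 32.3% of the 96 H209 members. Across the 189 members the 2 sets of log2 fold changes had a Pearson r of 0.48, given as a description because members share libraries and sequence. ZNF724 was higher in 3 lines, 32 members were higher in 2 lines, and 0 were lower in more than 1. When 1 library at a time was left out, 22 of the 39 H187 members and 76 of the 96 H209 members stayed past the threshold each time. The H187 count fell to 25 without the first lurbinectedin library.

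**Figure D3:**
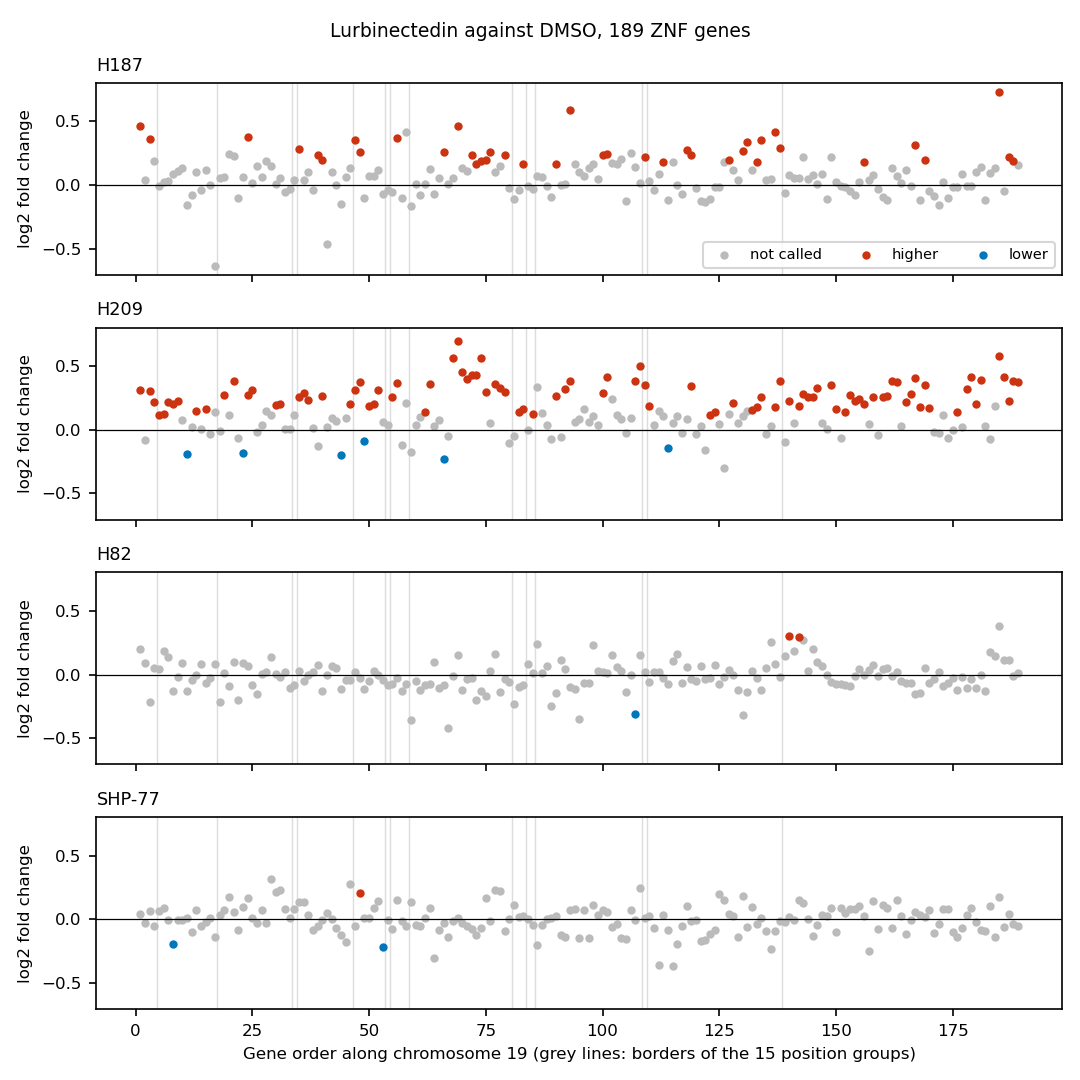
Log2 fold change of lurbinectedin against DMSO (y axis) for the 189 members in their order along chromosome 19 (x axis), 1 panel per line, with members called higher in red and lower in blue and borders of the 15 position groups as grey lines. Red points are spread over most groups in H187 (39 members) and H209 (96 members), and nearly all points are grey in H82 and SHP-77.

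ZNF829 had the smallest adjusted p among the members in both ISL1-high lines. In H187 it was 26.1, 25.2 and 26.1 CPM under DMSO and 33.9, 39.1 and 34.0 CPM under lurbinectedin, a log2 fold change of 0.47 ± 0.06 (SE; edgeR adjusted p = 7.0e-06). In H209 it rose from 31.7, 32.9 and 29 CPM to 52.1, 46.9 and 52.5 CPM, by 0.70 ± 0.05 on the log2 scale (SE; edgeR adjusted p = 2.8e-16). Treated and control libraries did not overlap in either line. In H82 the means were 1.97 and 2.18 CPM and in SHP-77 5.19 and 5.22 CPM, with overlapping libraries and no call.

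ZNF569, a KRAB protein with 18 fingers, gave another of the clear rises in H209, from 34.0, 38.0 and 36.9 CPM to 53.8, 53.8 and 53.1 CPM (log2 fold change 0.56 ± 0.04, SE; edgeR adjusted p = 8.6e-15). In H187 the change was smaller (difference 0.37 ± 0.07, SE; edgeR adjusted p = 0.00026 by the H209-minus-H187 contrast added after the data were seen), from 56.6, 54.6 and 60.2 CPM to 63.1, 66.0 and 66.6 CPM (0.19 ± 0.05, SE; edgeR adjusted p = 0.0036). ZNF525 rose in both lines, by 0.36 ± 0.05 in H187 and 0.26 ± 0.04 in H209 (SE), and its libraries did not overlap in either line. The difference between these responses, −0.11 ± 0.08 (SE), did not pass the test (edgeR adjusted p = 0.45). In H187 it went from 46.0, 44.1 and 46.8 CPM to 58.6, 61.0 and 55.9 CPM.

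ZNF850, a KRAB protein with 29 fingers, moved in opposite directions in the 2 ISL1-high lines. In H187 it rose from 39.0, 41.4 and 43.1 CPM to 48.8, 50.4 and 48.4 CPM, a log2 fold change of 0.26 ± 0.05 (SE; edgeR adjusted p = 0.00044). In H209, where it was more abundant, it fell from 94.7, 97.5 and 91.6 CPM to 80.4, 79.6 and 81.7 CPM, by −0.23 ± 0.03 (SE; edgeR adjusted p = 4.8e-07). The groups did not overlap in either line. The difference between the 2 responses, a contrast added after the data were seen, was −0.49 ± 0.06 (SE; edgeR adjusted p = 7.4e-07). By that contrast 16 members responded more in H209 and 1, ZNF850, less, where 5.65% and 5.46% of all genes were called.

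Promoter sequences of the members are shown for 4 genes. ZNF829, ZNF525 and ZNF569 were higher in both ISL1-high lines, and ZNF850 moved in opposite directions. ZNF569 also had the smallest adjusted p for the difference between the responses of the ISL1 classes. Each window holds 250 bases before and 50 bases after the gene's start in RefSeq on GRCh38.p14, written 5′ to 3′ on the gene's strand. The windows are chr19:36916242-36916541 (minus strand) for ZNF829, chr19:53365455-53365754 (plus) for ZNF525, chr19:37467395-37467694 (minus) for ZNF569 and chr19:36772758-36773057 (minus) for ZNF850. Capitals mark matches to any of the 8 motifs searched.
ZNF829: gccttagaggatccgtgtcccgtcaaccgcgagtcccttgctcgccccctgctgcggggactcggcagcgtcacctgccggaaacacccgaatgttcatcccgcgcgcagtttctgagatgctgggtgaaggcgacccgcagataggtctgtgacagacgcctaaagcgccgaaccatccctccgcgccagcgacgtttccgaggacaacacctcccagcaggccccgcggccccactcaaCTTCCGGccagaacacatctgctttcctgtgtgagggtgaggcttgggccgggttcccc
ZNF525: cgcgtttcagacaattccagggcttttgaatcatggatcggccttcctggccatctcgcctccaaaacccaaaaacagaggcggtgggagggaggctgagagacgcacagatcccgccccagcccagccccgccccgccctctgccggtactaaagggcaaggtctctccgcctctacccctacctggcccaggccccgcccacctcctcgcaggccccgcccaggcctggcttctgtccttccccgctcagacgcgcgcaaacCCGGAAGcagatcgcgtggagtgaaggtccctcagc
ZNF569: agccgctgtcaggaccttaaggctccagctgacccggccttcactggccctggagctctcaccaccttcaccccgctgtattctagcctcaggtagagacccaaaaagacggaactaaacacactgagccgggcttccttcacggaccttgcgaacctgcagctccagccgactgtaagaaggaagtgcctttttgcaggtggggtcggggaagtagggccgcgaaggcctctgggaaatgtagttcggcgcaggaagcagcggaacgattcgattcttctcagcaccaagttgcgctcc
ZNF850: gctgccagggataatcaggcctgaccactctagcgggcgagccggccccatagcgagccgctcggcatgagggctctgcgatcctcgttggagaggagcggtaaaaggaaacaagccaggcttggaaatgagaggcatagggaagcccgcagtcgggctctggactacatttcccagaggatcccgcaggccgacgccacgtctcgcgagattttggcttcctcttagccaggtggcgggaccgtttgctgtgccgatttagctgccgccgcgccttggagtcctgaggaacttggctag
ZNF829 and ZNF525 each hold 1 match to the ETS core CCGGAAG, on the minus and the plus strand. The windows of ZNF569 and ZNF850 hold no match to the 8 motifs. Among other members that rose in both ISL1-high lines, ZNF230 holds 1 ETS core in its window and ZNF227 holds 0 (windows not printed).

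The motifs were searched on both strands in the 171 members that matched a RefSeq promoter. The ETS core CCGGAAG stood in 79 of them (46.2%), against 37.6% of promoters of ZNF genes elsewhere, 21.3% of promoters of all listed genes and 10.7% of all RefSeq promoters. CCAAT stood in 49.7% of member promoters, 43.8% of those of ZNF genes elsewhere, 37.8% of those of listed genes and 35.7% of all. The other 6 motifs are given in the same order. The NRF1 motif stood in 12.3%, 14.0%, 13.2% and 6.28%, and ACTACAA, the core bound by ZNF143, in 5.85%, 6.74%, 4.32% and 2.95%. The CREB site TGACGTCA stood in 4.09%, 5.06%, 3.58% and 1.98%, and the YY1 motif in 1.17%, 0.562%, 2.34% and 0.916%. TATAAA stood in 2.34%, 5.06%, 4.74% and 12.0%, and the ATF4 motif TGATGNAA in 0.585%, 1.12%, 1.30% and 3.67%. For the NRF1 motif the members' share was near that of listed genes. The YY1 motif stood in only 2 of the 171 member promoters, so no direction is read from its shares. None of the motifs contains another. Of the 79 members with the ETS core 50 were higher in H209 and 17 in H187, and of the 92 without it 41 and 19. With CCAAT, 48 of 85 members were higher in H209 and 20 in H187, and without it 43 of 86 and 16. With the NRF1 motif 12 of 21 were higher in H209 and 2 in H187, and without it 79 of 150 and 34. The ZNF143 core gave 6 of 10 in H209 and 2 in H187, and each of the remaining 4 motifs stood in 7 or fewer member promoters. Over all genes tested, 22.7% were higher in H209 and 12.2% in H187. None of these splits was tested. A match describes letters in the window and is not a measured binding site.

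ZNF829 and its neighbour ZNF568 lie head to head, on the minus and the plus strand, with 38 bases between their annotated starts, so the ZNF829 window above holds both starts. Both were higher in the ISL1-high class, ZNF568 by a log2 difference of 2.35. ZNF568 is the human gene whose mouse counterpart, Zfp568, represses a placental Igf2 transcript. In H209 it rose from 17.0, 20.2 and 18.6 CPM to 26.6, 24.7 and 25.2 CPM without overlap, by 0.46 ± 0.06 on the log2 scale (SE; edgeR adjusted p = 5.5e-08), while in H187 its log2 fold change was 0.13 ± 0.05 (SE; edgeR adjusted p = 0.072). Among the members 5 neighbouring pairs had starts on opposite strands within 1000 bases. ZNF569 and ZNF570 rose together in H187 (0.19 and 0.19) and in H209 (0.56 and 0.30, log2 fold change). ZNF790 and ZNF345, whose gene models overlap at their starts, had log2 fold changes of −0.05 and 0.57 in H209. ZNF490 with ZNF791 and ZNF565 with ZNF146 had no call in either line. Whether strand was used in counting is not given in the sources used here, so reads in overlapping models cannot be assigned with certainty.

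Further KRAB genes rose in H187. ZNF230, with 7 fingers, went from 8.26, 6.84 and 8.53 CPM to 11.9, 11.6 and 12.3 CPM, with a log2 fold change of 0.59 ± 0.09 (SE; edgeR adjusted p = 8.1e-05). It also rose in H209, from 11.8 ± 0.354 to 15.4 ± 0.383 CPM (SD, n = 3). ZNF766 rose by 0.24 ± 0.04 in H187 and by 0.34 ± 0.04 in H209 (SE). ZNF331, an imprinted gene whose protein has 12 fingers, went from 26.3, 24.7 and 26.3 CPM to 31.4, 31.3 and 31.7 CPM in H187 and from 26.3, 28.2 and 26.3 CPM to 35.1, 35.7 and 34.5 CPM in H209. Its level under DMSO in H82, 28.0 ± 1.3 CPM (SD, n = 3), was near that of the ISL1-high lines, yet the treated H82 libraries, at 27.6 ± 0.246 CPM (SD, n = 3), overlapped the controls. ZNF837 had the largest fold of the members in H187, 0.73 ± 0.24 on the log2 scale (SE; edgeR adjusted p = 0.027), but at only 0.974 CPM under DMSO; it was named after its values were seen, and its call was lost in 5 of 6 fits with 1 library left out.

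In H209 the rises included ZNF227, ZNF606 and ZNF529. ZNF227, with 18 fingers, went from 36.1, 35.8 and 35.2 CPM to 47.5, 45.5 and 48.8 CPM (log2 fold change 0.41 ± 0.04, SE; edgeR adjusted p = 1.2e-10) and also rose in H187, by 0.24 ± 0.05 (SE). ZNF606 rose from 31.1 ± 1.11 to 41.4 ± 1.37 CPM in H209, while in H187 it measured 34.9 ± 1.89 and 34.8 ± 1.12 CPM (SD, n = 3). ZNF529 rose by 0.36 ± 0.04 (SE) in H209 and had a log2 fold change of 0.12 ± 0.05 (SE; edgeR adjusted p = 0.10) in H187. ZNF606 and ZNF529 thus had similar control levels in the 2 lines and a call in H209 alone; by the added contrast above, the responses differed by 0.42 ± 0.09 for ZNF606 (SE; edgeR adjusted p = 0.0010) and by 0.23 ± 0.08 for ZNF529 (SE; edgeR adjusted p = 0.039, and up to 0.17 with single libraries left out).

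The 6 members lower in H209 were ZNF850, ZNF559, ZNF493, ZNF614, ZNF91 and ZNF440, all with the KRAB pattern; ZNF440 was named after its values were seen. ZNF559 went from 26.4, 26.3 and 28.7 CPM to 24.1, 24.2 and 22.9 CPM (−0.19 ± 0.06, SE; edgeR adjusted p = 0.0055). ZNF493 went from 23.9 ± 1.2 to 20.8 ± 1.24 CPM and ZNF614 from 38.4 ± 0.665 to 34.6 ± 1.08 CPM (SD, n = 3), both without overlap. For ZNF91 and ZNF440 the groups overlapped, and ZNF91, at 201 ± 11.5 and 189 ± 3.88 CPM (SD, n = 3), had a log2 fold change of only −0.09. The calls of 4 of the 6 were lost when single libraries were left out, and ZNF850 and ZNF559 kept theirs.

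In the ISL1-low lines the few calls were weak. ZNF865 and ZNF579, GC-rich genes without a KRAB pattern, were the 2 members higher in H82. ZNF865 went from 24.0, 22.7 and 27.8 CPM to 28.9, 30.9 and 31.1 CPM (0.30 ± 0.07, SE; edgeR adjusted p = 0.016), and ZNF579 from 26.7, 26.2 and 32.9 CPM to 34.8, 33.5 and 36.6 CPM (0.30 ± 0.07, SE; edgeR adjusted p = 0.022). Neither pair of groups overlapped. With a correction for transcript GC content, added after the data were seen, their edgeR adjusted p became 0.37 and 0.16, and each call was lost in 5 of 6 fits with 1 library left out. ZNF180 was lower in H82, from 12.9, 13.5 and 14.2 CPM to 10.0, 11.2 and 11.4 CPM (−0.31 ± 0.08, SE; edgeR adjusted p = 0.042), and higher in H209, by 0.38 ± 0.05 (SE; edgeR adjusted p = 9.3e-08). Its H82 call, too, was lost in 5 of 6 such fits. Both members higher in H82 were also higher in H209.

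In SHP-77 the 1 higher member was ZNF724, from 25, 28.7 and 28.6 CPM to 29.8, 31.5 and 33.7 CPM (0.21 ± 0.06, SE; edgeR adjusted p = 0.043). It also rose in H209, from 51.3 ± 2.42 to 66.4 ± 3.96 CPM, and in H187, from 27.5 ± 1.42 to 32.9 ± 1.26 CPM (SD, n = 3), whereas H82 measured 36.5 ± 1.07 and 35.6 ± 1.64 CPM with overlap. ZNF558 was lower in SHP-77, from 33.8, 34.4 and 36.3 CPM to 29.7, 30.3 and 31.0 CPM, and ZNF254 from 28.2, 30.01 and 31.8 CPM to 26.9, 26.0 and 24.6 CPM. The groups of these 3 genes did not overlap, but each SHP-77 call was lost in 4 of 6 fits with 1 library left out.

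**Figure D4:**
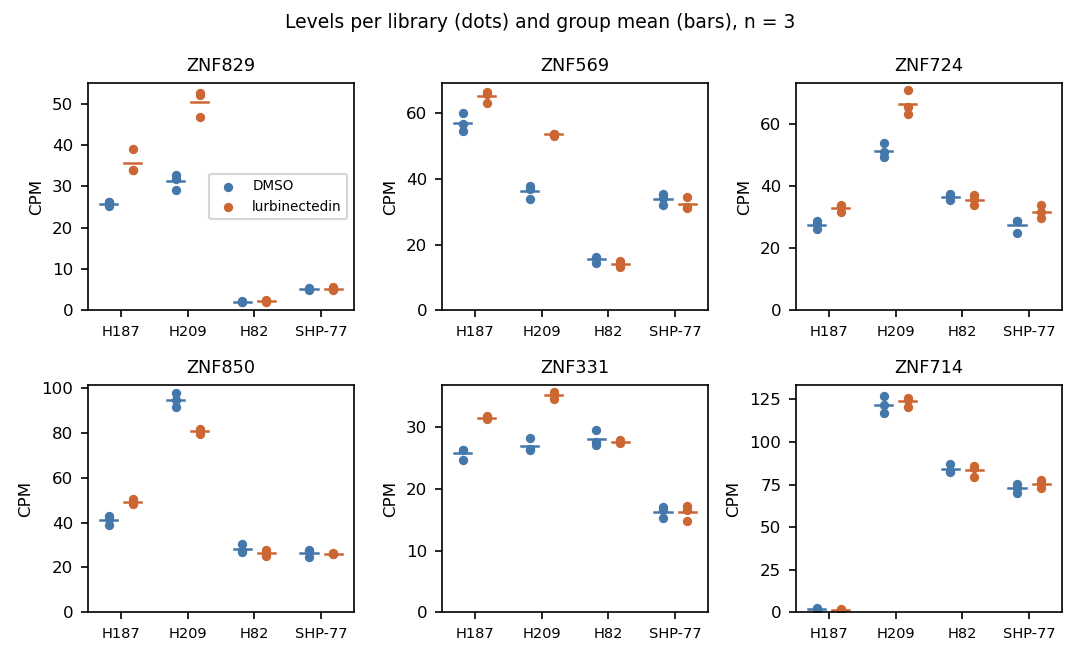
CPM of ZNF829, ZNF569, ZNF724, ZNF850, ZNF331 and ZNF714 in each library (points; DMSO blue, lurbinectedin orange) with group means (short bars, n = 3) by cell line. ZNF829, ZNF569, ZNF724 and ZNF331 have treated points above the controls in both ISL1-high lines, ZNF850 is higher in treated H187 and lower in treated H209, and ZNF714 is near 0 in H187 and above 70 CPM in the other lines.

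The responses of the 2 classes were then compared directly, as the mean response of the ISL1-high lines minus that of the ISL1-low lines. Of the members, 51 responded more in the ISL1-high class and 1 less, where 15.9% and 15.5% of all genes were called, and the median log2 difference was 0.12 against 0.00 over all genes. ZNF genes elsewhere gave 70 and 7 of 215, and the other chromosome 19 genes 73 and 114 of 620. The KRAB-pattern members gave 44 of 153 and the others 7 of 34. By adjusted p, ZNF569 came first with a difference of 0.48 ± 0.06 (SE; edgeR adjusted p = 9.0e-09), followed by ZNF527 at 0.47 ± 0.07 (SE; edgeR adjusted p = 1.3e-06), ZNF180 at 0.42 ± 0.06 (SE; edgeR adjusted p = 2.8e-06) and ZNF331 at 0.35 ± 0.06 (SE; edgeR adjusted p = 5.6e-06). The 2 largest differences by size were those of ZNF230 and ZNF829, at 0.50 each.

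ZNF527, a KRAB protein with 11 fingers encoded next to ZNF569, shows the pattern in single libraries. It was 27.4, 27.2 and 25.9 CPM under DMSO and 30.5, 30.2 and 29.7 CPM under the drug in H187, and 16.0, 17.7 and 16.7 CPM and 21.3, 24.1 and 22.9 CPM in H209. In H82 it was 12.1, 11.6 and 10.1 CPM and 9.71, 10.6 and 8.97 CPM, and in SHP-77 15.8, 16.6 and 15.7 CPM and 14.5, 15.2 and 14.4 CPM. Treated libraries lay above controls in both ISL1-high lines, overlapped them in H82 and lay below them in SHP-77, where the change was not called. The 1 member with a lower response was ZNF714, at −0.24 ± 0.09 (SE; edgeR adjusted p = 0.036). That value rests on H187, where ZNF714 averaged 2.02 and 1.46 CPM, and the call was lost in 6 fits with 1 library left out.

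A panel of members with described roles gave mixed values. Of the genes on the panel, ZNF93, known to repress LINE-1 elements, and ZNF382 were not listed for SHP-77 and so were not tested as members. ZNF274, which binds the 3′ ends of zinc finger genes and recruits SETDB1 there, rose in H209 from 20.4, 21.8 and 21.2 CPM to 26.8, 29 and 27.4 CPM (0.39 ± 0.06, SE; edgeR adjusted p = 2.1e-07). In H187, where it was lowest, it measured 8.06 ± 0.147 and 8.94 ± 0.831 CPM (SD, n = 3) with overlapping groups. ZNF675, an inhibitor of TRAF6 signalling, rose by 0.19 ± 0.04 (SE) in H209, from 43.6 ± 2.64 to 49.5 ± 1.83 CPM (SD, n = 3). ZNF264 rose by 0.14 ± 0.04 (SE) in H209, and its class difference under DMSO was 1.60. ZNF432, which has been linked to DNA repair, ZNF444 and ZNF71 had no call for the drug in any line, and the level of ZNF432 was higher in the ISL1-high class by 1.72 ± 0.07 (SE).

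Position along the chromosome was described by dividing the members wherever more than 1 Mb separated them, which gave 15 groups. Counts of members with higher levels in the ISL1-high lines are given by group, with no test between groups. Over all genes tested the same rule called 12.7% higher. The group from ZNF175 to ZNF331 (51.57 to 53.58 Mb) had 15 of 29 members called higher in the ISL1-high class under DMSO, and the group from ZNF565 to ZNF573 (36.18 to 37.78 Mb) had 10 of 22. The group from ZNF628 to ZNF446 (55.48 to 58.49 Mb) had 19 of 51 and that from ZNF101 to ZNF43 (19.67 to 21.85 Mb) 6 of 12. By contrast, the group from ZNF557 to ZNF846 (7.07 to 9.79 Mb) had 0 of 13 and that from ZNF575 to ZNF296 (43.53 to 45.08 Mb) 2 of 23. The median log2 differences of the last 2 groups were 0.31 and 0.31.

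The 4 members nearest the start of the chromosome were ZNF554, ZNF555, ZNF57 and ZNF77 (2.82 to 2.94 Mb). All 4 were at least 2-fold higher in H187 than in the other lines on average, and 3 of them were lower in H82. ZNF556, which lies between ZNF555 and ZNF57, was listed for H82 and SHP-77 alone and so was not tested as a member. ZNF554 measured 8.52, 8.70 and 9.97 CPM in H187 and 10.7, 9.89 and 10.2 CPM in H209, against 0.584, 0.822 and 0.395 CPM in H82. For this gene H187 therefore did not stand above H209, only above the mean of the other lines. Under lurbinectedin it rose in H187 by 0.47 ± 0.09 and in H209 by 0.31 ± 0.08 (SE).

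Drug responses are given by position group as counts, with no test between groups or lines. In all, 96 members were higher in H209 and 39 in H187, where 22.7% and 12.2% of all genes tested were higher. In H209, 34 of the 51 members between ZNF628 and ZNF446 were higher under lurbinectedin and 13 of the 22 between ZNF565 and ZNF573, but 7 of the 23 between ZNF575 and ZNF296. In H187 the corresponding counts were 6, 8 and 4, and the group from ZNF175 to ZNF331 had 10 of 29 in each line. The 6 of 51 in H187 lay near the share of all genes. The group from ZNF557 to ZNF846 had 7 of 13 in H209 and 0 in H187, and that from ZNF730 to ZNF254 had 5 of 7 and 2. The group from ZNF565 to ZNF573 holds ZNF829, ZNF568, ZNF569, ZNF527 and ZNF850. In it 10 of 22 members had a larger response in the ISL1-high class, where 15.9% of all genes did. Over 174 pairs of neighbours within groups, the log2 fold changes had a Pearson r of 0.28 in H209, 0.27 in H82, 0.12 in SHP-77 and 0.05 in H187, and the level differences of H187 from the other lines had an r of 0.39. These are descriptions across genes that share libraries and, in places, overlapping or similar exons.

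**Figure D5:**
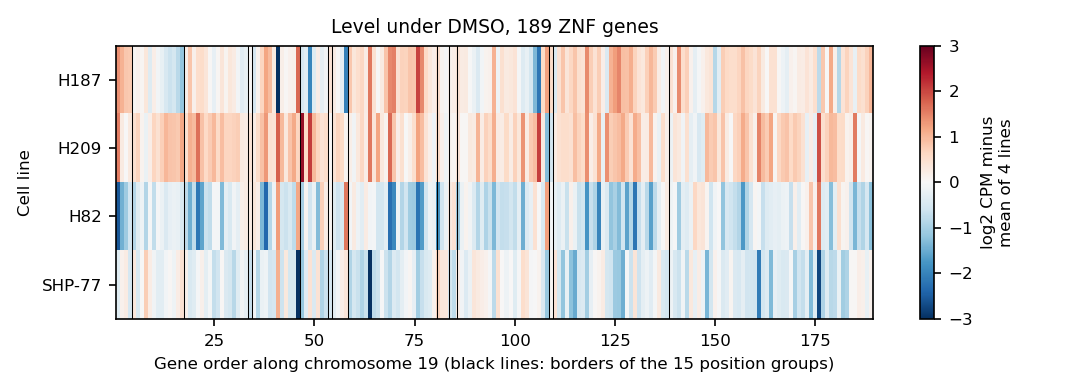
Level of the 189 members under DMSO in each line (rows) in their order along chromosome 19 (x axis), as log2 CPM minus the mean of the 4 lines (color scale, from −3 to 3), with borders of the 15 position groups in black. Red, above the mean, prevails in H187 and H209 and blue in H82 and SHP-77, and the first 4 genes are all red in H187.

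The calls were also counted by gene span, base composition and level, beside 22.7% of all genes tested higher in H209 and 12.2% in H187. In H209, 35 of 56 members spanning under 15 kb were higher under the drug, 44 of 91 from 15 to 30 kb and 17 of 42 over 30 kb. In H187 these counts were 11, 21 and 7. Members with a transcript GC content over 50% gave 18 of 29 in H209 and 4 of 29 in H187, the latter near the share of all genes. Those under 40% gave 25 of 50 and 12 of 50. With the members divided into 3 equal sets by level, the middle set gave 42 of 63 in H209 and 18 of 63 in H187, the lowest set 19 and 11, and the highest set 35 and 10. The part of span, composition and level in the calls was not tested.

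The co-repressor machinery that KRAB proteins use gave calls in both directions. Of 32 genes listed for it, 3 were higher and 3 lower in H187, 5 higher and 11 lower in H209, 0 higher and 1 lower in H82 and 2 higher and 1 lower in SHP-77, by edgeR at an adjusted p under 0.05. As shares of the list, these were 9.38% higher and 9.38% lower in H187 (12.2% and 12.7% of all genes) and 15.6% and 34.4% in H209 (22.7% and 22.5%), so that in these 2 lines only the share lower in H209 was above that of all genes. In H82 they were 0% and 3.12% (1.55% and 1.38%), and in SHP-77 6.25% and 3.12% (1.98% and 3.21%), each from 2 genes or fewer. TRIM28, the KRAB co-repressor, had log2 fold changes of −0.01 in H187 and 0.04 in H209 with no call. SETDB1 was higher in H209, by 0.14 ± 0.03 (SE), while its partner ATF7IP was lower in H187 and H209, by −0.22 ± 0.05 and −0.16 ± 0.03 (SE). The DNA methylation maintenance genes UHRF1 and DNMT1 were higher in both ISL1-high lines, UHRF1 by 0.34 and 0.30 and DNMT1 by 0.21 and 0.18, and the H3.3 chaperone subunit ATRX was lower in both, by −0.15 and −0.19 on the log2 scale.

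Many of these genes are close copies of each other, and how reads that match several genes were counted is not given in the sources used here. Values of near-identical copies are therefore uncertain, and exons of ZNF66 and ZNF43 were listed under more than 1 chromosome name.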

How the data were processed

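Total RNA libraries were made from 24 samples with a stranded, ribosomal RNA-depleting kit, per the labels' protocols. Per the submitters' processing notes, STAR 2.7.10a, featureCounts, Subread 2.0.3, edgeR 4.2.0 and hg38 were used; the annotation and the settings for strand and multiply mapped reads are not given in the sources used here. The authors deposited 1 table per line with raw counts per gene, log2 fold changes and p-values, per the file headers.

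The raw counts were fitted with edgeR 4.0.16 (quasi-likelihood test) in R 4.3.3, with TMM scaling, filterByExpr (minimum count 10, minimum total 15) and Benjamini-Hochberg adjustment over all genes tested. Each line was fitted alone for the drug effect. The response difference used all 24 samples, and levels used the 12 DMSO samples. A call needed an adjusted p under 0.05 and, for levels, also a 2-fold difference. CPM came from the 11408 genes listed for all 4 lines, and RPKM is CPM per kilobase of exon. Library totals were 24226553 to 36415190 counts. Transcript GC, fingers and KRAB patterns came from GENCODE v29 models. Promoter windows came from RefSeq.

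The members and the gene lists were chosen with earlier results of these data known. Genes were named as up to 6 per line and direction with the smallest adjusted p and no overlap between groups, up to 4 per direction between classes, those called in 3 lines, the 6 highest and 3 lowest levels, up to 3 per direction that set a line apart, a panel of members with described roles, and the borders of the position groups. Divergent pairs were named by position, and other exceptions are stated. The code was tested on simulated counts, where 76.0 to 90.0% of 1.5-fold changes were recovered. Simulated 1.25-fold changes were recovered less often: 52.0% for SHP-77, 66.0% for H82 and 70.0% for each ISL1-high line. Replicates are biological per the series design, and p-values measure only the spread between these samples. Same-numbered samples did not deviate together (r from −0.17 to 0.11). Alternatives were RLE scaling, no filter, DESeq2 1.42.0, a replicate block, 1 joint fit, the deposited p-values, adjusted p alone, single libraries left out and, added after the data were seen, a GC correction. The level of 1 marker gene is not reported here.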

Additional observations from a re-analysis of the deposited data

Results flagged for a closer look

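The responses of the ISL1-high and ISL1-low lines differed for 51 members with a larger response in the ISL1-high class and 1 with a smaller one, by the edgeR test of the difference itself. Among the named members, ZNF569 differed by 0.48, ZNF527 by 0.47, ZNF180 by 0.42 and ZNF331 by 0.35 on the log2 scale. ZNF714 differed by −0.24, at a level of about 2 CPM in H187. ZNF850 was picked out by the test of H209 against H187, added after the data were seen, which gave a log2 difference of −0.49, and single libraries left out moved it between −0.52 and −0.45. The causes of these differences were not tested.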

How the results depend on the processing

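Of 53 results for named genes, 44 kept their direction and side of the threshold in every alternative run, and none reversed. In H82, the number of higher members became 4 in the joint fit of all samples, 4 with the authors' deposited table and 0 with the GC correction, and that of lower members became 0 with DESeq2, 0 with the GC correction and 2 with the deposited table. SHP-77 lost its higher member with DESeq2 (0), and its level comparison gave 3 higher with the GC correction. The joint fit called 1 member lower in H187. With the adjusted p alone, the class comparison gave 161 higher and 12 lower, and the level comparisons gave 126 and 37 in H187, 156 and 15 in H209, 30 and 138 in H82 and 34 and 124 in SHP-77.

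With single libraries left out, H187 gave 25 to 36 higher and 0 to 2 lower, H209 85 to 96 higher and 3 to 8 lower, H82 0 to 6 higher and 0 to 2 lower, and SHP-77 0 to 3 higher and 0 to 2 lower. The H209 lower count was 3 without DMSO replicate 2, lurbinectedin replicate 1 or lurbinectedin replicate 2. The response difference gave 46 to 59 higher and 0 to 2 lower, and the class comparison 62 to 65 higher and 2 lower. The level comparisons gave 34 to 37 higher and 9 to 10 lower in H187, 61 to 63 and 1 in H209, 6 and 48 to 55 in H82, and 1 to 2 and 31 to 33 in SHP-77. The medians of the members lay between 0.07 and 0.08 in H187, 0.13 and 0.17 in H209, −0.03 and −0.01 in H82 and −0.02 and 0.02 in SHP-77. The cause of these shifts was not tested.

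With the replicate number as a block, H187 gave 36 higher and 0 lower, H209 95 and 7, H82 4 and 1, SHP-77 1 and 2, and the response difference 49 and 0. The samples share only a number, and the block could not be fitted to the DMSO comparisons between lines. Depth limits members near or below 1 CPM in a line, such as ZNF837 in H187 and ZNF43 in SHP-77, and small folds.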
